A study of Mus musculus with 6 samples.

Results

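Day 3 after caerulein was set against day 1 by comparing the 2 libraries of those days gene by gene, as the log2 ratio of day 3 over day 1, over the 10000 genes with the highest mean over all 6 libraries of the series, out of 31617 genes in the table. These 10000 are called expressed below. The mean includes days 3 and 1, so a low gene can count as expressed through its level on 1 of these days. Counts of expressed genes that rose or fell are then partly set by that choice. The mice were Balb/c and wild type, and the RNA came from pancreatic macrophages, sorted by the pan-leukocyte protein CD45, the integrin chain CD11b of myeloid cells and F4/80, a surface protein of mouse macrophages (CD45+CD11b+F4/80+). The day 3 and day 1 mice had received 10 hourly intraperitoneal injections of caerulein, which mimics the gut hormone cholecystokinin, drives acinar cells beyond their secretory capacity and so causes acute pancreatitis, and the days count from the first injection. Mock mice, given saline, stand as day 0, and libraries of days 4, 5 and 7 complete the series. The labels use the abbreviation RAP for the condition without spelling it out. All mice were fasted overnight before the injections, and each library was a pool of more than 3 mice. There was 1 library per day, so no difference between day 3 and day 1 has a replicate check, and a difference between days cannot be told apart from a difference between pools.

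Pancreatitis is sterile at its start: injured acinar cells release nucleic acids, nucleotides and cytokines that bring blood monocytes into the gland, where they become macrophages. Type I interferon acts on such cells through a receptor whose kinases phosphorylate STAT proteins, STAT2 among them, which with IRF9 bind a DNA element in the promoters of antiviral genes. Tissue macrophages can also refill their niche by dividing in place, and a dividing cell switches on the genes of DNA replication through E2F factors and, later, those of mitosis through a complex of MuvB, B-MYB and FOXM1.

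Between day 3 and day 1 the interferon-induced and monocyte genes were lower and the genes of S phase and mitosis higher, in the same pair of libraries. A 2-fold or larger rise was found in 972 of the 10000 expressed genes (9.72%) and a 2-fold or larger fall in 821 (8.21%), which makes 1793 in all (17.9%). These shares are the background for the counts of each list below. The median log2 ratio of all expressed genes was -0.08. At least 8-fold differences were found in 121 genes on the higher side and 94 on the lower side, and at least 16-fold in 45 and 42. The genes at least 2-fold higher took 15.5% of all reads on day 3 and 4.88% on day 1, while those at least 2-fold lower took 5.50% of reads on day 3 and 18.4% on day 1. In what follows a gene is said to have risen or fallen on day 3 only when it passed 2-fold against day 1, levels are normalised read counts, and ratios are log2 values of day 3 over day 1 after adding a pseudocount of 17.8, which understates the differences of low genes.

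**Figure D1:**
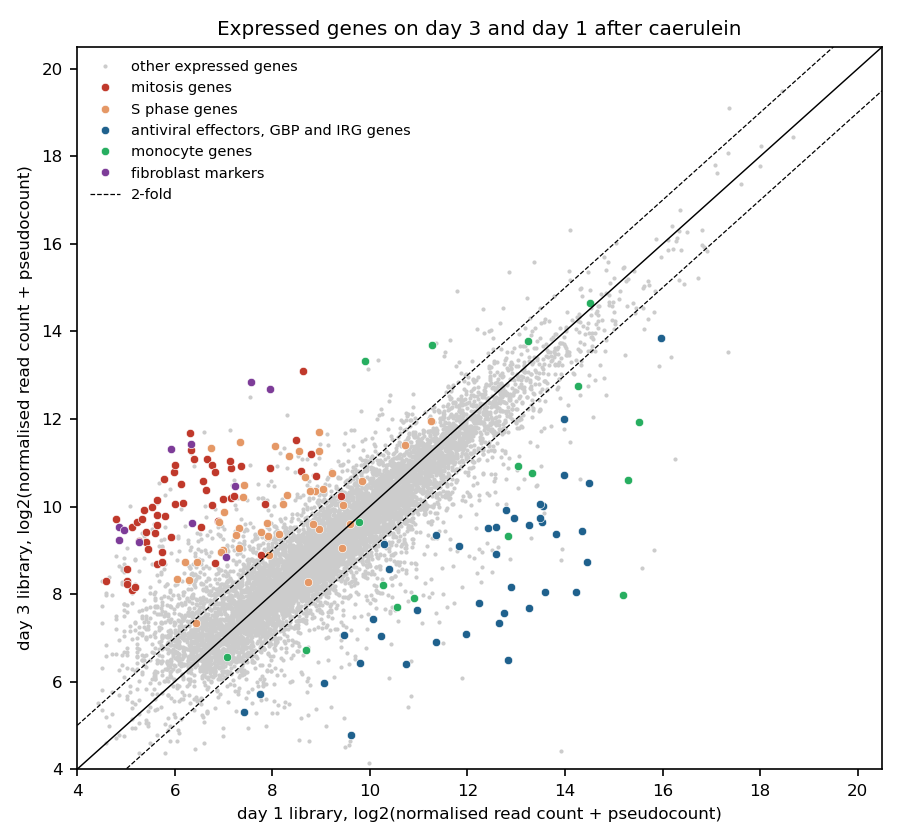
Level of each expressed gene in the day 3 library (vertical axis) against the day 1 library (horizontal axis), both as log2 of the normalised read count plus pseudocount. Points are genes, coloured by list, and dashed lines mark 2-fold. Mitosis genes lie above the upper dashed line in 57 of 58 cases, and the 41 antiviral, GBP and IRG genes lie below the lower one.

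The mock library places the direction of these differences. It lay between day 3 and day 1 for 738 of the 972 genes that rose (75.9%) and for 632 of the 821 that fell (76.98%), against 41.2% of all expressed genes. Mock stood above both days for 206 of the genes that rose (21.2%) and below both for 108 of those that fell (13.2%). Day 3 held the highest level of all 6 libraries for 525 of the genes that rose (54.0%), against 19.4% of all expressed genes, and day 1 held the lowest for 678 (69.8%), against 19.4%. Of the genes that fell, day 1 held the highest level for 628 (76.5%), against 30.1% of all expressed genes, and day 3 the lowest for 358 (43.6%), against 15.6%. These shares follow in part from the choice of genes, since a gene that differs between 2 libraries is more often at an extreme in them.

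Depth was 25726455 reads on day 3 and 16200131 on day 1, and 3 reads were worth 2.11 normalised units on day 3 and 3.69 on day 1. The genes of the sort stayed within 2-fold: Adgre1, which encodes F4/80, had 12632 on day 3 and 10592 on day 1, Ptprc, which encodes CD45, 7282 on day 3 and 12626 on day 1, and Itgam, which encodes CD11b, 1409 on day 3 and 2627 on day 1. Of 17 core macrophage genes 2 rose and 3 fell, where 9.72% and 8.21% of all expressed genes did. Their median ratio was -0.40. The receptor gene Csf1r rose to 23811 on day 3, against 11449.8 on day 1, and the immunoglobulin receptor gene Fcgr1 fell to 5984, against 29526. Immediate early genes, which respond to cell handling, had 0 of 17 higher and 1 lower (Dusp1, a phosphatase gene, at -1.08, within 2-fold under 4 of the 5 other scalings). Heat shock genes, the other list chosen for cell handling, had 3 of 10 higher and 1 lower. With the genes split into 4 groups of nearly equal size by annotated length, the median ratio was 0.02 for the shortest genes and -0.13 for the longest. Rescaling to equal totals gave 1148 genes higher and 651 lower, of which 63.8% were higher on day 3. Leaving out acinar, erythroid and mitochondrial genes as well gave 1150 higher and 635 lower, so that 64.4% of the genes past 2-fold were higher on day 3, against 54.2% in the comparison as given, and the median of all genes moved to 0.06.

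Antiviral effector genes fell as a block. All 27 expressed genes of this list were at least 2-fold lower on day 3 than on day 1, where 8.21% of all expressed genes were, and their median ratio was -3.96. The IFIT proteins, which hold back the translation of foreign RNA, gave the largest differences. Ifit2 had 245 on day 3 and 19064 on day 1 and a ratio of -6.18, with a 95% interval of -6.44 to -6.13 from counting error for the ratio taken without the pseudocount. Ifit1 had 188 on day 3 and 9785 on day 1 (ratio -5.57). Ifit3 had 409.9 on day 3 and 22520.5 on day 1 and its near-identical copy Ifit3b 72.5 on day 3 and 7239 on day 1, and because reads can be shared between such copies the division between them is uncertain. With the pseudocount, the day 1 levels of these 4 genes were between 47.6 and 80.4 times those of day 3.

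The other effectors spanned a wide range. Rsad2, which encodes viperin, an enzyme that makes a chain-terminating nucleotide, had 247 on day 3 and 12309 on day 1 (ratio -5.54), and the exonuclease gene Isg20 had 173 on day 3 and 6893 on day 1 (ratio -5.18). Isg15, whose product is a ubiquitin-like tag, had 266 on day 3 and 7591 on day 1, and Usp18, which encodes the protease that removes this tag and dampens the interferon receptor, had 642 on day 3 and 14349 on day 1. The dynamin-like GTPase gene Mx1 was at -4.90 and the oligoadenylate synthetase gene Oas3 at -4.46. The smallest ratios were those of Eif2ak2, the gene of the RNA-activated kinase PKR, at -1.13, Ifi27l2a at -1.97 and Ifitm3, which blocks virus entry, at -2.12.

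Over all 6 libraries the list was highest on day 1 and lowest on day 3 or 4. Ifit2 had 2798 in mock and 19064, 245, 374, 12171 and 1687 on days 1, 3, 4, 5 and 7. Day 1 held the highest level of 26 of the 27 genes and day 3 the lowest of 14, and mock lay between day 3 and day 1 for all 27. The level on day 3 was thus not a return to mock but below it, by a median log2 ratio of -1.83, while day 1 stood above mock by a median of 2.11. The mock library is shared by these 2 medians.

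GTPases of the GBP and IRG families, which act on the vacuoles of intracellular microbes, behaved alike: all 14 expressed genes fell, with a median of -3.25. Tgtp2 had 144 on day 3 and 6399 on day 1 and Irgm1, a regulator of the family, 1054 on day 3 and 11492 on day 1 (ratios -5.31 and -3.43). Gbp4 was at -3.39, Iigp1 at -3.09 and Gbp3, the smallest of the list, at -1.82. Tgtp1 and Tgtp2 are near-identical, so each one's level is uncertain. Here day 1 and mock were closer than for the effectors: the median of day 1 over mock was 0.75, and that of day 3 over mock was -2.15. Summed over both lists the 41 genes had 36571 normalised reads on day 3 and 365302 on day 1. The mock sum was 97386, and the sums of days 4, 5 and 7 were 33636, 188060 and 55384.

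The machinery that carries the interferon signal divided into genes that fell and genes that stayed within 2-fold, with 1 that rose. Of 17 expressed signalling genes 7 fell and 1 rose (median -0.70). Irf7, the transcription factor that amplifies interferon production, had 2159 on day 3 and 78765 on day 1 (ratio -5.18, counting interval -5.24 to -5.14). Stat2 had 480.3 on day 3 and 4994 on day 1 (ratio -3.33) and Irf9, its DNA-binding partner, 1465 on day 3 and 4669 on day 1 (ratio -1.66). The feedback inhibitor gene Socs1 was at -2.06. The receptor chains Ifnar1 and Ifnar2 stood at -0.21 and -0.11, and the kinases Jak1 and Tyk2 at -0.24 and -0.01, all within 2-fold. Ifngr1, a chain of the interferon gamma receptor, rose to 6929 on day 3, against 3072 on day 1.

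Among sensors of nucleic acid 5 of 10 genes fell and 0 rose. These were the cytosolic RNA sensor genes Ifih1 (MDA5) at -3.11, Ddx58 (RIG-I) at -2.75 and Dhx58 (LGP2) at -2.67, the DNA sensor gene Mb21d1 (cGAS) at -1.46 and Tlr3 at -1.16. Mavs and Tmem173 (STING), the adaptors downstream of the RNA and DNA sensors, stood at -0.32 and 0.79.

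MHC class I and peptide loading genes fell in 11 of 12 cases, by less than the antiviral genes (median -1.39). H2-T23, a non-classical class I gene, had 2842 on day 3 and 17615 on day 1, and Nlrc5, the class I transactivator, had 54.9 on day 3 and 374 on day 1. The peptide transporter gene Tap1 was at -2.10, B2m, the light chain of class I molecules, at -1.34, and the immunoproteasome genes Psmb8, Psmb9 and Psmb10 lay between -1.30 and -1.17. Erap1, a peptide-trimming enzyme gene, was within 2-fold at -0.53.

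The promoters of the 4 lowest antiviral effectors that have 1 RefSeq promoter are shown for the element that the complex of STAT2 and IRF9 binds. Each stretch is the 250 bases before the RefSeq start of the gene, build GRCm38.p6, written 5′ to 3′ on the strand of the gene, and capitals mark GAAA, any 2 bases and GAAA again, read on the opposite strand, an interferon-stimulated response element pattern. Ifit3b lies at chr19:34607707-34607956 (plus strand), Ifit3 at chr19:34583279-34583528 (plus strand), Ifit1 at chr19:34640639-34640888 (plus strand) and Rsad2 at chr12:26456453-26456702 (minus strand).
Ifit3b: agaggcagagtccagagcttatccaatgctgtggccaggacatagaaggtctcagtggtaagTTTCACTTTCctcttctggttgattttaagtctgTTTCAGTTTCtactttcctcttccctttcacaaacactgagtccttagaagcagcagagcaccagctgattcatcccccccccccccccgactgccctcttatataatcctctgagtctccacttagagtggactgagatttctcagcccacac
Ifit3: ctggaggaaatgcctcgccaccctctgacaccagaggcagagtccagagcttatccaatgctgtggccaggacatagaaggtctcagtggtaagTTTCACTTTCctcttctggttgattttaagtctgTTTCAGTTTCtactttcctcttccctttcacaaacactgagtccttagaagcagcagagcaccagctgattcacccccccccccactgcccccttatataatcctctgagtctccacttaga
Ifit1: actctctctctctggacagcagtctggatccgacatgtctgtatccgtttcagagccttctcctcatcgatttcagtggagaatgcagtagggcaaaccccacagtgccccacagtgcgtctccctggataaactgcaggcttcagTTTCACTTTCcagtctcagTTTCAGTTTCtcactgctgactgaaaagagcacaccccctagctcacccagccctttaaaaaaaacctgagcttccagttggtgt
Rsad2: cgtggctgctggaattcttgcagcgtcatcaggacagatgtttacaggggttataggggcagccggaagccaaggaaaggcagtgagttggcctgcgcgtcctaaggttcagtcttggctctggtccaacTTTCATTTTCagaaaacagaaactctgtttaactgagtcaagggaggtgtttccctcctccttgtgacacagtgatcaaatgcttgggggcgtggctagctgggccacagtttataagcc
The pattern begins 188 and 154 bases before the start in Ifit3b, 156 and 122 in Ifit3, 104 and 85 in Ifit1 and 120 in Rsad2.

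The pattern was commoner in the promoters of genes that fell. RefSeq promoters, taken as 250 bases before to 50 after each start, were matched for 7658 of 9999 expressed gene symbols. This pattern, GAAA and GAAA with any 2 bases between them, was present on either strand in 78 of 595 promoters of genes that fell on day 3 (13.1%) and in 25 of 65 of those at least 8-fold lower (38.5%), against 2.31% of genes that rose, 3.32% of expressed genes and 3.49% of all 27025 promoters. It was present in 9 of 19 promoters of antiviral effectors (47.4%), 9 of 10 of GBP and IRG genes (90%) and 3 of 10 of class I genes (30%). Another pattern searched, GAS, is TTC, any 3 bases and GAA. It was present in 6 of 19 antiviral promoters (31.6%), 6 of 10 of GBP and IRG genes (60%) and 1 of 10 of class I genes (10%). Its share over expressed genes was 7.08%. A match describes letters in a window and not binding.

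Monocyte genes fell next to the interferon genes, led by Ly6c2 with the lowest ratio of all expressed genes when predicted genes are left out. Of 17 expressed monocyte genes 11 fell and 2 rose (median -2.06). Ly6c2, the surface protein gene that marks inflammatory blood monocytes, had 234 on day 3 and 37117 on day 1, a ratio of -7.21 with a counting interval of -7.47 to -7.15. Its neighbour and near-copy Ly6c1 had 495 on day 3 and 57854 on day 1, and reads can be shared between the pair. Over the series Ly6c2 had 2671 in mock and 37117, 234, 106, 336 and 782 on days 1, 3, 4, 5 and 7.

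Other genes of this list followed. Plac8 had 1546 on day 3 and 39864 on day 1 (ratio -4.67) and Ms4a4c, of a family of membrane proteins, 3884 on day 3 and 46974 on day 1. Vcan, the matrix proteoglycan versican, had 221 on day 3 and 1888 on day 1, the haptoglobin gene Hp was at -2.55, the thrombospondin gene Thbs1 at -2.10 and the chitinase-like gene Chil3 at -1.51. Ccr2, the receptor that draws monocytes out of marrow, stood at 0.15, with 25880.4 on day 3 and 23258 on day 1. Against the list, Fn1, which encodes fibronectin, rose to 13266 on day 3, against 2453 on day 1, and Cx3cr1, the fractalkine receptor gene that marks patrolling monocytes and many tissue macrophages, rose to 10184, against 941 (ratio 3.41). In bulk RNA of a sorted pool, fewer cells of a type and less RNA per cell cannot be told apart, here and in all lists below.

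NK cell markers and most neutrophil markers fell on day 3, beside the monocyte and interferon genes. All 7 expressed NK cell markers fell (median -2.23), with a summed level of the 9 markers in the table of 308 on day 3 and 4052 on day 1. Klrk1 alone had 99.3 on day 3 and 2886 on day 1, and among the 7 it was the 1 gene with its highest level of the series on day 1. Mock lay between the 2 days for Klrk1 only, unlike most monocyte and interferon genes. Of 9 neutrophil markers 7 fell and 1 rose, with a summed level of all 13 in the table of 9384 on day 3 and 10569 on day 1. The riser was Retnlg, a resistin-like secreted protein gene, with 5792 on day 3 and 167 on day 1, and among those that fell Ngp was at -3.77 and S100a9 at -1.78. B cell markers fell in 4 of 9 cases and T cell markers in 3 of 9, against 8.21% of all expressed genes. Their summed levels were 929 on day 3 and 2273 on day 1 for B cells. For T cells they were 725 on day 3 and 1624 on day 1. The T cell gene Lck, at -1.04, came within 2-fold under other scalings (-0.91 with equal totals). Day 1 already stood under mock in the NK, B and T cell lists, by median log2 ratios of -1.39, -1.69 and -1.87. For neutrophil markers that median was 0.13. Klra8 was at 0 on day 1, and no marker of these 4 lists was at 0 on day 3. The part of these cells in the fall of the interferon and monocyte genes was not tested.

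**Figure D2:**
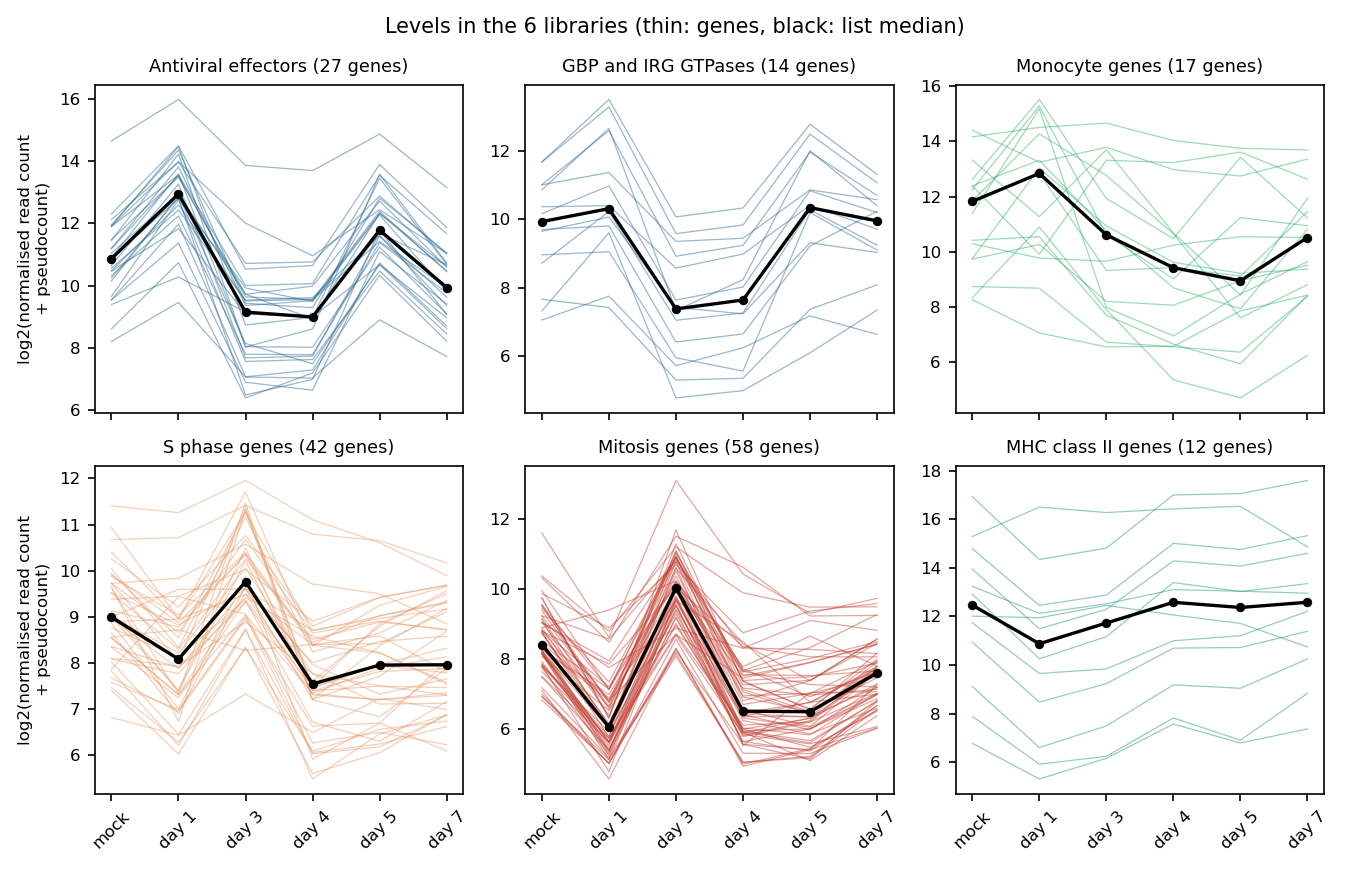
Levels of 6 gene groups in the 6 libraries, in order of day, as log2 of the normalised read count plus pseudocount. Thin lines are genes and the black line is the median of the group: antiviral, GBP and monocyte groups are high on day 1 and low on day 3, S phase and mitosis groups have their peak on day 3, and MHC class II genes are low on both days.

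Genes of mitosis rose in 57 of 58 cases, where 9.72% of all expressed genes did. Their median ratio was 3.76 and the range ran from 0.83 to 5.38. Birc5, which encodes survivin, a subunit of the complex that steers Aurora B to centromeres, had 3281 on day 3 and 61.5 on day 1, a ratio of 5.38 with a counting interval of 5.34 to 6.17. The B-type cyclin genes, whose products drive entry into mitosis, had 1971 on day 3 and 46.8 on day 1 for Ccnb1 and 2495 on day 3 and 62.8 on day 1 for Ccnb2, and the gene of their kinase partner, Cdk1, had 2159 on day 3 and 83.7 on day 1 (ratio 4.42). The kinase gene Plk1 had 823 on day 3 and 9.85 on day 1, the day 1 level resting on 8 reads.

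All 17 mitotic kinase and cyclin genes rose (median 3.74), and so did all 19 genes of centromere, kinetochore and condensin (median 3.57). The kinetochore genes Spc24 and Ndc80 were at 4.45 and 4.04, the topoisomerase gene Top2a at 4.18, and the condensin subunits Smc2 and Smc4 at 2.24 and 2.40. The spindle checkpoint kinase gene Bub1b was at 4.40 and the gene of the Aurora B kinase at 3.74. Foxm1, a transcription factor of mitotic genes, had 254 on day 3 and 17.2 on day 1.

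Among genes of the spindle, mitotic exit and cytokinesis 21 of 22 rose (median 3.93). Nusap1, a microtubule bundler, was at 4.85, Ube2c, the ubiquitin-conjugating enzyme of the anaphase-promoting complex, at 4.69, and the kinesin gene Kif20a at 4.57. Mki67, which encodes the Ki-67 antigen used to count cycling cells, had 1527 on day 3 and 77.5 on day 1 (ratio 4.02). Pttg1, which encodes securin, was the member within 2-fold, with 1189 on day 3 and 659.6 on day 1 (ratio 0.83), and its partner Espl1, the separase gene, was at 1.12.

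Day 3 held the highest level of all 6 libraries for 57 of the 58 genes and day 1 the lowest for 40. Their summed level was 26993 in mock and 5906, 75118, 9938, 8171 and 12633 on days 1, 3, 4, 5 and 7. Mki67 had 738 in mock and 77.5, 1527, 329.9, 149.8 and 361 on days 1, 3, 4, 5 and 7. Mock thus stood above day 1 and the later days, and day 3 above mock.

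S phase genes rose by less. Over the lists of replication licensing and fork proteins and of nucleotide supply and chromatin copying 31 of 42 genes rose and 0 fell (median 1.90), with summed levels of 52115 on day 3 and 16043 on day 1. Of 29 licensing and fork genes 20 rose. The helicase subunits Mcm6 and Mcm7 had 3330.0 on day 3 and 482 on day 1 and 2272 on day 3 and 305 on day 1, and the loader gene Cdc6 406 on day 3 and 56.6 on day 1. Lig1, the ligase that joins Okazaki fragments, was at 2.83, the primase gene Prim1 at 2.19 and Pcna, the sliding clamp, within 2-fold at 0.69. Cdt1, the licensing factor, stood at 0.01, and its inhibitor Gmnn rose by a ratio of 1.57.

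The list of nucleotide supply and chromatin copying gave the larger differences of S phase, with 11 of 13 genes higher (median 2.71). The thymidine kinase gene Tk1 had 2564 on day 3 and 88.6 on day 1 (ratio 4.60, counting interval 4.52 to 5.21) and Rrm2, the small subunit of ribonucleotide reductase, 2818 on day 3 and 144 on day 1 (ratio 4.13). Tyms, thymidylate synthase, was at 3.08, Uhrf1, which passes on DNA methylation, at 2.87, and the histone chaperone gene Asf1b at 3.33. Of 7 checkpoint and recombination genes 5 rose, while Fanca, of the Fanconi DNA repair complex, fell to 106 on day 3, against 663 on day 1.

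Upstream of S phase the picture was mixed. Of 13 expressed G1 cyclin, kinase and E2F genes 3 rose and 1 fell. Cyclin D2 gene Ccnd2 fell to 504 on day 3, against 3198 on day 1 (ratio -2.63), and Ccnd1 and Ccnd3 stood at -0.07 and -0.94. Cyclin E gene Ccne1 rose to 419.8, against 76.3, and Mybl2, which encodes B-MYB, to 244, against 17.2. Mybl2 counts as expressed only through its day 3 level, so its rise is partly given by the choice of genes. E2f1 was at 0.76, Cdk4 at 0.56 and Myc at 0.06, all within 2-fold.

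Inhibitors of the cycle rose in 5 of 14 cases and fell in 0. Cdkn2c, which encodes the CDK4 and CDK6 inhibitor p18, had 1219 on day 3 and 38.1 on day 1 (ratio 4.47), Ccng2, an atypical cyclin of resting cells, 2139.7 on day 3 and 373 on day 1, and Mxd4, which opposes Myc, 1227 on day 3 and 343 on day 1. Cdkn1c had 61.3 on day 3 and 4.92 on day 1, the day 1 level resting on 4 reads, with a counting interval of 2.23 to 5.55. Cdkn1a, which encodes p21, stood at -0.17 and Trp53 at -0.02. Of 11 histone variant and chromatin genes 6 rose, among them H2afv at 3.08, H2afx at 2.31 and Hmgb2 at 1.93.

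The promoters of the 4 highest mitosis genes that have 1 RefSeq promoter are shown for 2 patterns of cell cycle genes, CCAAT, the box that NF-Y binds, and TTTGAA, the cell cycle genes homology region, or CHR, that the MuvB complex binds. Each stretch is again the 250 bases before the RefSeq start in GRCm38.p6, with capitals for either pattern. Birc5 lies at chr11:117848987-117849236 (plus strand), Ccnb2 at chr9:70421555-70421804 (minus strand), Ccnb1 at chr13:100786487-100786736 (minus strand) and Plk1 at chr7:122159185-122159434 (plus strand).
Birc5: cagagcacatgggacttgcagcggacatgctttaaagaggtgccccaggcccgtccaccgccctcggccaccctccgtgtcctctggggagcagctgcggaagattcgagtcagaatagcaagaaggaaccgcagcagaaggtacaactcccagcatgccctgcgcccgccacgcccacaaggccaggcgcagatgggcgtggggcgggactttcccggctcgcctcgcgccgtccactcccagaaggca
Ccnb2: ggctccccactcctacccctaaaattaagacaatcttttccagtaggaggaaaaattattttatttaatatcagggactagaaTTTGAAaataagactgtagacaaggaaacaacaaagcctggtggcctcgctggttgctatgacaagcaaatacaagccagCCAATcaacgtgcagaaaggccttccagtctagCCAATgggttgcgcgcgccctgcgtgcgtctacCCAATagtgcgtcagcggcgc
Ccnb1: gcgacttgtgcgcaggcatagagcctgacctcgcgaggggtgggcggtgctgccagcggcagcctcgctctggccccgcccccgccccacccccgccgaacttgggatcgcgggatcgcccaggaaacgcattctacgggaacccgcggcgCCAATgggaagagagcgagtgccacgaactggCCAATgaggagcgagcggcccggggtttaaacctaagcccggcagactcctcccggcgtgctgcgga
Plk1: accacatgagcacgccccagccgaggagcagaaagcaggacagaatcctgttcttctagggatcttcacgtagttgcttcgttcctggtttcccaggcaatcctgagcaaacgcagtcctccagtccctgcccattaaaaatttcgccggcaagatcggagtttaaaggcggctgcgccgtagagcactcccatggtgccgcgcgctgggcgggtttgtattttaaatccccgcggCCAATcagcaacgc
Ccnb2 holds CCAAT at 87, 54 and 21 bases before its start, Ccnb1 at 99 and 67, and Plk1 at 14. TTTGAA begins 167 bases before the start in Ccnb2, and past the printed stretch 4 bases after the start in Ccnb2 and 30 bases after it in Plk1. The Birc5 stretch holds neither, which says only that these letters are not in this window.

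Over the whole lists TTTGAA was commoner in mitosis promoters and the E2F pattern in S phase promoters, while CCAAT was common in both, and these differences in share were not tested. TTTGAA on either strand was present in 34 of 48 mitosis promoters (70.8%) and in 5 of 34 S phase promoters (14.7%), against 12.0% of expressed genes and 18.1% of all promoters. CCAAT was present in 36 of 48 mitosis promoters (75%) and 21 of 34 S phase promoters (61.8%), against 38.8% of expressed genes and 37.9% of all. Both patterns stood together in 29 of 48 mitosis promoters (60.4%), against 4.91% of expressed genes. An E2F pattern, TTTCCCGC or TTTGGCGC, was present in 11 of 34 S phase promoters (32.4%) and in 4 of 48 mitosis promoters (8.33%), against 3.34% of expressed genes and 1.63% of all. Among genes at least 8-fold higher on day 3, which include many mitosis genes, 47 of 89 promoters held TTTGAA (52.8%). Of 10 GBP and IRG promoters 5 also held it (50%), so the letters are not limited to cell cycle genes.

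**Figure D3:**
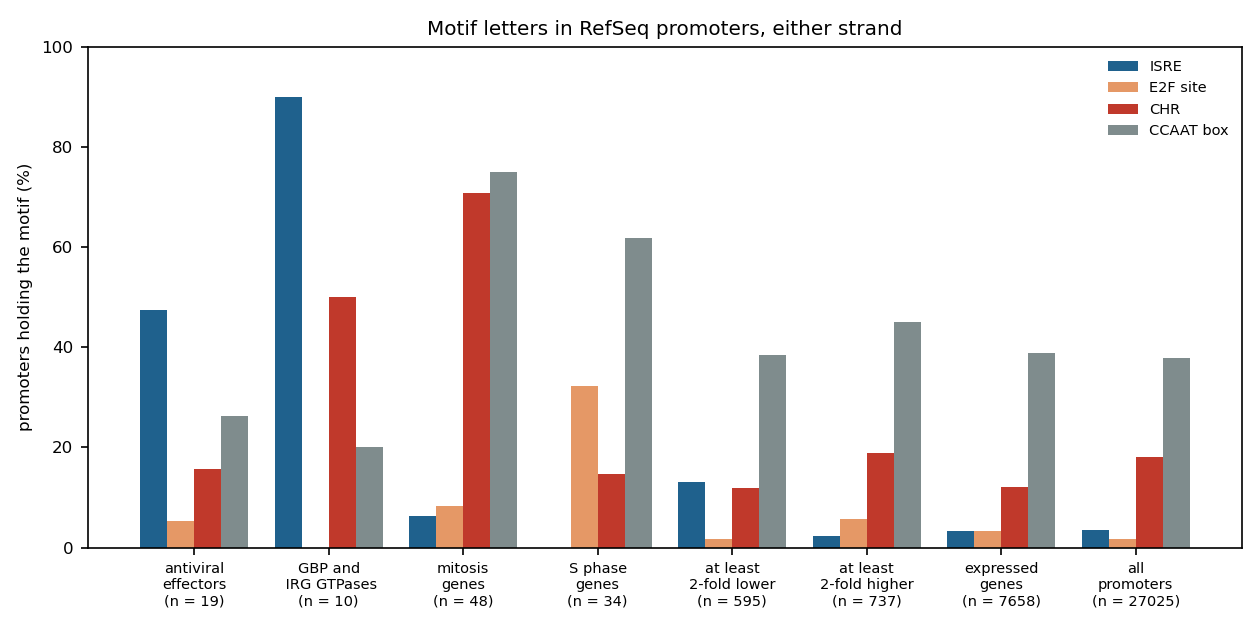
Share of RefSeq promoters, from 250 bases before to 50 after the start, that hold each of 4 letter patterns on either strand, by gene group, with the number of promoters under each group. The ISRE bar is highest for GBP and IRG genes (90%), the CHR bar for mitosis genes (70.8%) and the E2F bar for S phase genes (32.4%).

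Genes of protein synthesis, energy and protein breakdown differed by less than the cycle genes. Of 74 cytosolic ribosomal protein genes 15 rose and 0 fell, with a median of 0.67, and day 3 held the highest level of 66. Genes that assemble ribosomes ran the other way, with 5 of 17 lower and 0 higher (median -0.68): Rrp9 was at -1.44 and Nop2 at -1.32. Under the 5 other scalings 2 or 3 of these genes fell. Of 10 mRNAs of the mitochondrial genome 5 rose, with mt-Cytb at 1.56, while of 70 nuclear genes of the respiratory chain 0 passed 2-fold in either direction (median 0.27, and 1 rose under the other scalings), and of 72 mitochondrial ribosomal protein genes 1 rose.

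Proteasome genes stood lower on day 3 without most of them passing 2-fold. All 31 subunit genes had a ratio below 0 (median -0.76), 3 fell, with Psmd3 at -1.14 (0 or 1 under 4 of the 5 other scalings), and day 1 held the highest level of all 31 over the 6 libraries. Genes of the unfolded protein response fell in 3 of 14 cases (1 or 2 under 3 of the 5 other scalings): the chaperone gene Hspa5, which encodes BiP, had 37190.1 on day 3 and 83193 on day 1 (ratio -1.16), Creld2 was at -1.56 and Manf, a secreted stress protein gene, at -1.12.

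Cholesterol synthesis genes were lower as a group, with 11 of 24 cholesterol and fatty acid synthesis genes lower and 0 higher (median -0.94). The squalene epoxidase gene Sqle had 315 on day 3 and 1114 on day 1 (ratio -1.77). Day 1 held the highest level of 18 of the 24. The members tied to fatty acids stayed within 2-fold, with Fasn at 0.03 and Scd2 at 0.37. Of 21 glycolysis and hypoxia genes 4 fell (1 or 2 under the other scalings), where 8.21% of all expressed genes fell. Among the 4 were Pkm at -1.06 and Hk3 at -1.52. Vegfa, the vessel growth factor gene, rose to 871 on day 3, against 234 on day 1.

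**Figure D4:**
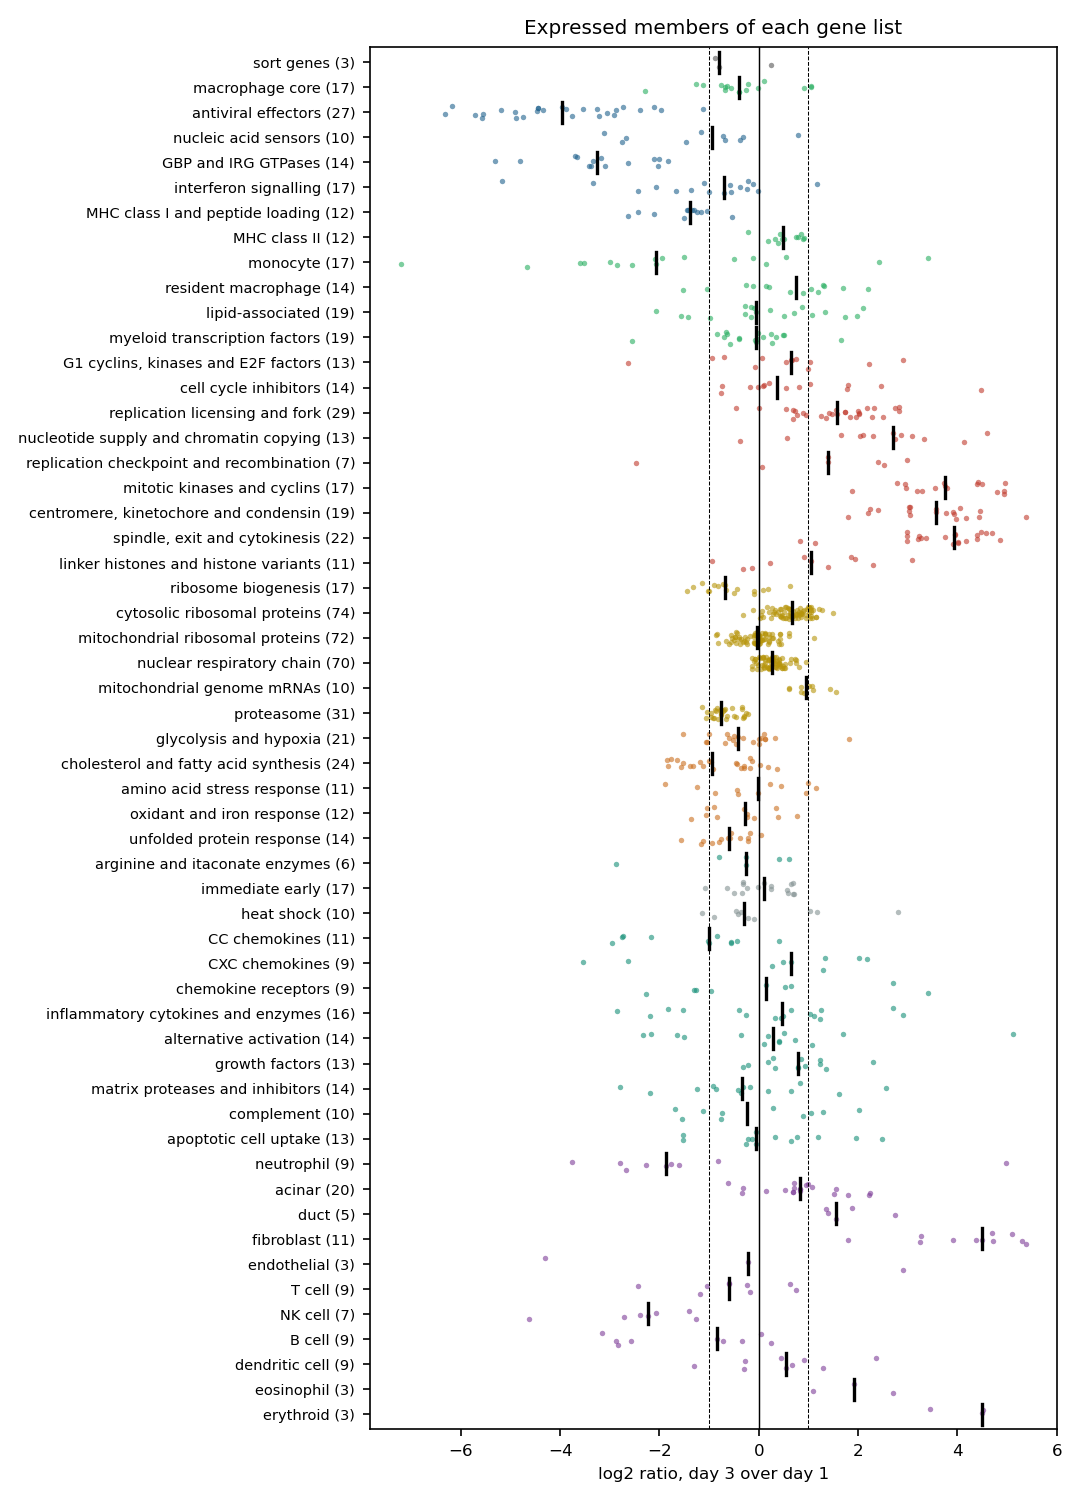
Log2 ratio of day 3 over day 1 (horizontal axis) for each expressed member of each gene list, with the number of members in brackets. Points are genes, the black bar is the list median and dashed lines mark 2-fold. The mitosis lists have medians between 3.57 and 3.93, antiviral effectors -3.96 and GBP and IRG genes -3.25.

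Heat shock and amino acid stress genes past 2-fold went both ways, where 17.9% of all expressed genes passed 2-fold in either direction. Of 10 heat shock genes 3 rose and 1 fell. The small heat shock gene Hspb1 had 1437 on day 3 and 191 on day 1, and the chaperone genes Hspa1a and Hspa1b were at 1.04 and 1.18. Hspa1a and Hspa1b are near-copies, so reads can be shared between them. In mock Hspb1 had 1503, Hspa1a 14978 and Hspa1b 23175, each above both days. Hsph1 fell, at -1.15 (within 2-fold under 2 of the 5 other scalings). Of 11 amino acid stress genes 1 rose, Phgdh of serine synthesis at 1.15 (0.93 with quantile normalisation), and 2 fell, led by the stress factor gene Ddit3 at -1.88. Of 12 oxidant and iron response genes 3 fell (1 under 4 of the 5 other scalings), led by the glutathione reductase gene Gsr at -1.36, and Fth1 and Ftl1, the ferritin chains, stood at -0.24 and -0.23. Of 6 arginine and itaconate genes 1 fell, the argininosuccinate synthase gene Ass1, with 82.4 on day 3 and 721 on day 1.

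Of 14 expressed genes of resident macrophages 6 rose and 2 fell (median 0.76), and 1 fell under the 5 other scalings, where Cd5l, the second, was within 2-fold. Sepp1, the selenoprotein P gene, had 81738 on day 3 and 17680.4 on day 1 (ratio 2.21), the mannose receptor gene Mrc1 6095 on day 3 and 1858 on day 1 (ratio 1.70) and Cd163, the haemoglobin scavenger receptor, 1321 on day 3 and 519 on day 1 (ratio 1.32). The complement genes C1qa and C1qb were at 1.04 and 1.29. Mock lay between the 2 days for 4 of the 14 genes, and day 3 held the highest level of the series for 0 of them. Timd4, the phosphatidylserine receptor gene of long-lived residents, fell to 103 on day 3, against 329 on day 1, both far under the 2704 of mock, and Lyve1 stood at -0.11. Gpr34, a lysophosphatidylserine receptor gene that was among the 15 highest ratios, had 2389.7 on day 3 and 62.8 on day 1 (ratio 4.90).

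Bridges between dying cells and macrophages rose while a receptor for them fell. Mfge8 and Gas6, secreted proteins that coat phosphatidylserine, had 640.2 on day 3 and 99.7 on day 1 and 3541 on day 3 and 1548 on day 1, and Pros1, protein S, had 2738 on day 3 and 688 on day 1 (ratios 2.49, 1.18 and 1.97). Axl, a receptor of Gas6, fell to 662 on day 3, against 1951 on day 1, and Mertk, the other receptor expressed, stood at -0.23. C3, the central component of complement, fell to 515 on day 3, against 1689.7 on day 1.

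Lipid-handling genes held no single direction, with 5 of 19 higher and 3 lower, against 9.72% and 8.21% of all expressed genes. Their median of -0.05 lay on either side of 0 between settings. Apoe, the apolipoprotein gene, had the largest gain in normalised reads of the genes compared, with 561567 on day 3 and 168971 on day 1 (ratio 1.73). The lipid receptor gene Trem2 had 11772 on day 3 and 2973 on day 1 (ratio 1.98) and Abca1, a cholesterol exporter, 1988 on day 3 and 452 on day 1 (ratio 2.09). Nr1h3, which encodes the oxysterol receptor LXR alpha, fell to 311 on day 3, against 1357 on day 1, and the galectin gene Lgals3 and the lipid droplet gene Plin2 fell to ratios of -1.57 and -1.42. Spp1, which encodes osteopontin, and Gpnmb stood within 2-fold at 0.51 and -0.15.

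MHC class II genes passed 2-fold in 0 of 12 cases (1 or 2 rose under 3 of the 5 other scalings), with a median of 0.49, and most had levels under mock on both days. H2-Aa had 7739 in mock and 1209.7, 2285, 10756, 8325 and 10431 on days 1, 3, 4, 5 and 7. Cd74, the class II chaperone, had 28676 on day 3 and 20774 on day 1, against 124549 in mock, and the transactivator gene Ciita 163 on day 3 and 80.0 on day 1, against 539.6 in mock. Day 1 held the lowest level of the series for 10 of the 12 genes. Of 19 myeloid transcription factor genes 1 rose and 1 fell, no larger shares than the 9.72% and 8.21% of all expressed genes. Id3, an inhibitor of helix-loop-helix factors, had 2886 on day 3 and 902 on day 1 (ratio 1.66). Pparg, a nuclear receptor of lipids, had 316 on day 3 and 1948 on day 1 (ratio -2.56). Spi1 and Cebpb, which set myeloid identity, stood at -0.57 and -0.65.

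Of 11 CC chemokine genes 6 fell and 0 rose (median -1.01). Among the 6, Ccl9, at -1.02, was within 2-fold under the 5 other scalings. Ccl2 had 10975 on day 3 and 73838 on day 1 (ratio -2.75, counting interval -2.78 to -2.72), Ccl7 9424 on day 3 and 62536 on day 1 and Ccl12 1414 on day 3 and 11025 on day 1, all 3 of them ligands of the monocyte receptor CCR2. Of 9 CXC chemokine genes 4 rose and 2 fell. Cxcl1, a neutrophil attractant, had 14312 on day 3 and 3160.2 on day 1 (ratio 2.17), while its relatives Cxcl2 and Cxcl3 stood at 0.27 and 0.48. Cxcl10, an interferon-induced attractant of T cells, fell to 519.8 on day 3, against 6276 on day 1, and the B cell attractant Cxcl13 to 72.5, against 544. Among 9 chemokine receptor genes Cx3cr1 and the eosinophil receptor gene Ccr3 rose, and among the 3 that fell Ccr7 and the neutrophil receptor gene Cxcr2 had ratios of -1.30 and -2.26.

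Cytokine genes also went both ways, with 6 of 16 higher and 4 lower, against 9.72% and 8.21% of all expressed genes. Il1a had 1161 on day 3 and 140.3 on day 1 (ratio 2.90) and Il10, an anti-inflammatory cytokine gene, 1364 on day 3 and 617.8 on day 1 (ratio 1.12). Csf3, the granulocyte growth factor gene, had 163 on day 3 and 9.85 on day 1, the day 1 level resting on 8 reads, with a counting interval of 3.04 to 5.28. In mock Il1a had 2450 and Csf3 246, above both days. Mock lay between the 2 days for 7 of the 16 cytokine genes. Il6 was at 1.03 and Ptgs2, which encodes the prostaglandin enzyme COX-2, at 1.25, and Il1b and Tnf stood within 2-fold at 0.64 and 0.49. The 4 genes that fell were Tnfsf10, the death ligand TRAIL, at -2.86, Il18 at -2.19, Il27 at -1.84 and Il15 at -1.53.

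Alternative activation genes, which IL-4 and IL-13 induce, had 3 of 14 members higher and 4 lower, against 9.72% and 8.21% of all expressed genes. Alox15, a lipoxygenase gene whose lipid products take part in resolving inflammation, had 3338 on day 3 and 78.8 on day 1, a ratio of 5.12 that was among the 15 highest. Its mock level was 4039, above both days, and mock lay between the 2 days for 4 of the 14 members. Retnla, a resistin-like gene of the same response, fell to 162 on day 3, against 881 on day 1, and Arg1, the arginase gene, stood within 2-fold with 5194 on day 3 and 3934 on day 1. Of 13 growth factor genes 4 rose (2 with 5 times the pseudocount or among the 6000 highest genes) and 0 fell: Hbegf, an EGF receptor ligand, was at 2.30, Igf1 at 1.36, Gdf15 at 1.23 and Vegfb at 1.23. Igf1 had 554 on day 3 and 206 on day 1, against 647 in mock, and Hbegf 342 on day 3 and 55.4 on day 1, against 487 in mock. Mock lay between the 2 days for 3 of the 13 growth factor genes. Among matrix proteases and inhibitors Mmp2 rose to 175 on day 3, against 14.8 on day 1, a level resting on 12 reads. Which cells in the pool gave the Mmp2 reads was not tested. Timp1, an inhibitor of these proteases, rose to 1311, against 418. Mmp8 and Adam8, of neutrophils and monocytes, fell to ratios of -2.79 and -2.18.

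Fibroblast markers were higher in the day 3 library, beside the genes of division. All 11 expressed fibroblast markers rose (median 4.50). Col1a1, a chain of type I collagen, had 2512 on day 3 and 43.1 on day 1 (ratio 5.38), Col3a1, of type III collagen, 7376 on day 3 and 171 on day 1 and Sparc, a matrix protein gene, 6528 on day 3 and 230.1 on day 1. The 15 fibroblast markers in the table summed to 4608 in mock and to 949, 24778, 1506, 2936 and 10801 on days 1, 3, 4, 5 and 7.

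Duct, acinar and red cell lists held genes that rose and 0 that fell. All 5 expressed duct markers rose, led by the keratin gene Krt19 with 521 on day 3 and 62.8 on day 1. The 9 in the table summed to 3863 on day 3 and 1194 on day 1. Krt19 and Epcam count as expressed only through their day 3 levels, so their rise is partly given by the choice of genes. Of 20 expressed acinar markers 6 rose and 0 fell (median 0.83), with a sum over all 21 of 194795 on day 3 and 89763 on day 1, against 974788 in mock. Amy2a5 was at 0 on day 1, and trypsinogen genes such as Try5, with 49443 on day 3 and 10529 on day 1, share reads with their copies. The 3 expressed haemoglobin genes rose (median 4.50), with a sum over 6 erythroid markers of 3612 on day 3 and 129 on day 1, where Hbb-bt was at 0. Gcg, the glucagon gene, had 696 on day 3 and 17.2 on day 1, with Sst and Iapp at 0 on day 1. Hba-a2, among the 3 haemoglobin genes, and Gcg likewise count as expressed only through their day 3 levels.

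Other lists were smaller. The 3 expressed eosinophil markers rose (sum over 5 markers 879 on day 3 and 132 on day 1, where Epx was at 0). Il5ra, at 1.09 with 24 reads on day 1, was at 0.62 with quantile normalisation. Dendritic cell markers had 2 of 9 higher and 1 lower, against 9.72% and 8.21% of all expressed genes. The lectin gene Cd209a and the growth factor receptor gene Flt3 rose, and the homing receptor gene Ccr7 fell. Flt3, at 1.29, was at 0.95 with quantile normalisation. Endothelial markers split: Plvap, of endothelial diaphragms, had 555 on day 3 and 59.1 on day 1, the VEGF receptor gene Kdr fell to a ratio of -4.30, and Pecam1 was within 2-fold at -0.22. Of 6 mast cell markers 0 were expressed. No marker of any of these lists was at 0 on day 3. The part of other cells in the rise of the division genes was not tested.

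**Figure D5:**
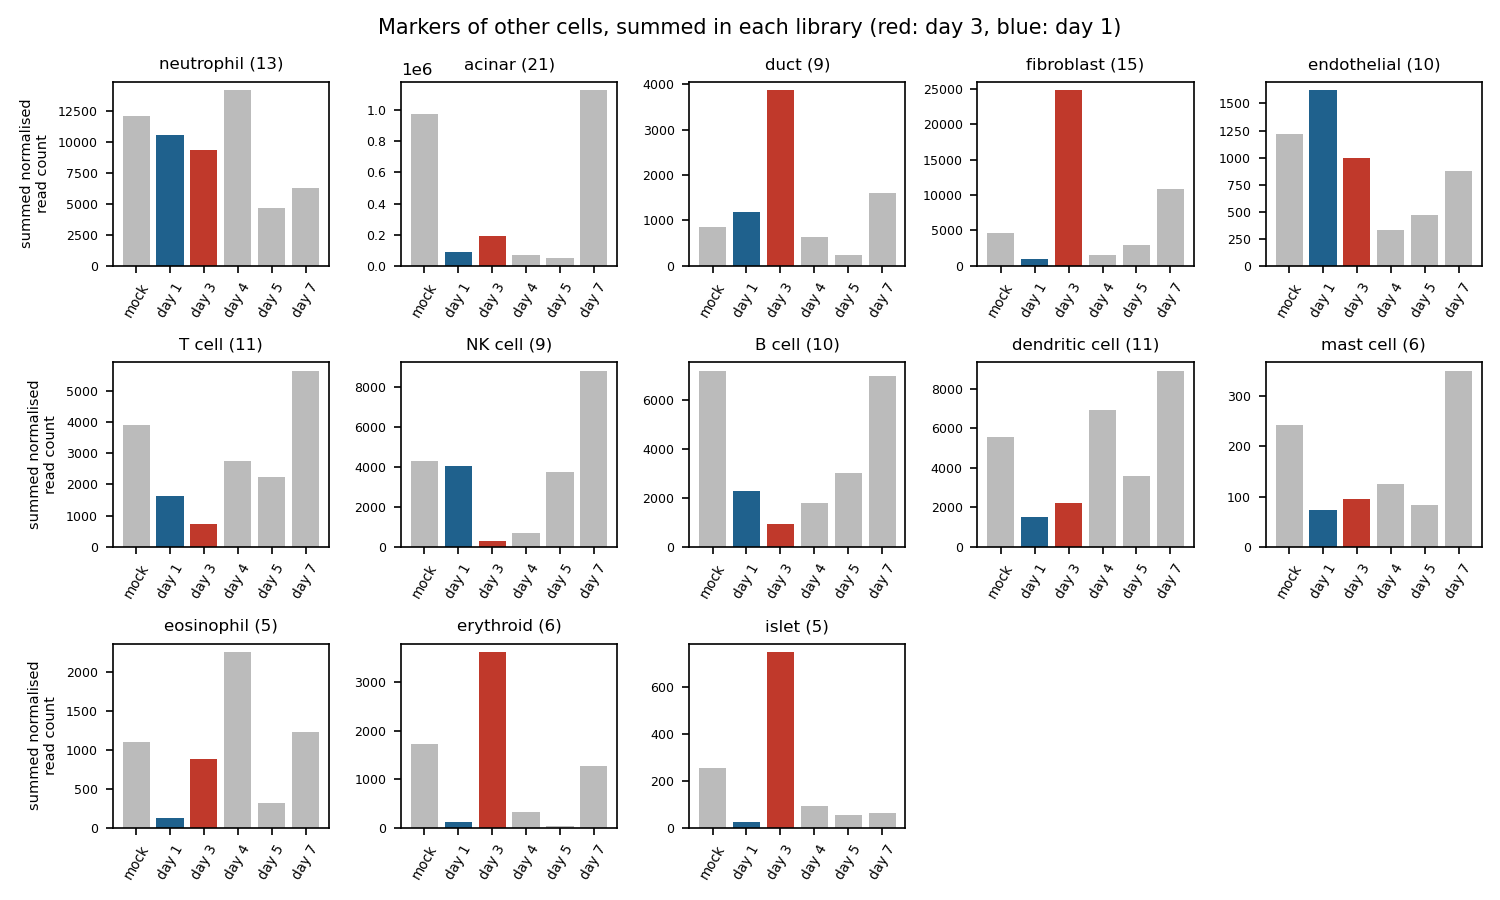
Summed normalised read counts of the markers of other cell types in each library (bars from 0, day 3 in red, day 1 in blue, the rest in grey), with the number of markers in the table in brackets and a separate axis for each panel. Fibroblast sums are 24778 on day 3 and 949 on day 1, and NK cell sums 308 on day 3 and 4052 on day 1.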

How the data were processed

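The table holds a size-scaled signal per gene that the authors deposited, 31617 genes by 6 libraries. Its columns step in multiples of the worth of 1 read, so they are counts over a single factor for each library: all values (100%) gave whole reads to within 0.01. The submitters' processing notes name Bowtie 0.12.2 and mm8 but give neither a role. How reads were counted, on which annotation and with what use of strand was not given in the sources used here. Counts of near-identical, overlapping and antisense genes are therefore uncertain.

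Log2 ratios of day 3 over day 1 used a pseudocount of 17.8, which is 1 part in 1000000 of the mean column total. Counts were made at 2-fold over the 10000 genes with the highest mean, the lowest of which averaged 74.13, against 74.07 for the first gene left out. With 1 library per side the ratios carry no test, and the edgeR count test named below takes its spread from other days. Clopper-Pearson intervals (95%) of read ratios cover only the error of counting, because without molecular identifiers reads may be copies, and say nothing of variation between pools.

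The members, the 57 gene lists and the patterns searched in promoters were chosen with earlier results of these data known. Named genes are the 15 highest and 15 lowest ratios, the 8 largest gains and losses, up to 5 members per list with the largest ratio in the direction of its median, members at least 2-fold against it, and the genes that encode the sorted surface proteins. The highest, the lowest, the gains and the losses leave out receptor segments, pseudogenes, small RNAs and genes known by prediction. Further list members are named for their role, chosen after their values were seen. Some genes that this rule names are not reported here. Promoter sequences (GRCm38.p6) and gene order are from RefSeq, and 9991 of 10000 identifiers had a length in the annotation. The calculations were tested on simulated data. The work used Python 3.11.15 with numpy 2.4.6, scipy 1.17.1, pandas 2.3.3 and, for figures, matplotlib 3.10.9. A count test added after the data were seen used R 4.3.3 and edgeR 4.0.16.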

Additional observations from a re-analysis of the deposited data

How the results depend on the processing

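No paired analysis was possible because each day has 1 library. With 5 times the pseudocount 636 genes were at least 2-fold higher on day 3, among the 6000 highest genes 382 were higher and 542 lower, and with no filter on low values 1570 were higher, the last 2 by construction with fewer or more genes. Under the other settings, a pseudocount 0.5 times as large and 5 other scalings, of which TMM was added after seeing the data, counts of higher genes ran from 840 to 1150 and of lower genes from 635 to 864, and those with a counting interval that excludes equality were 972 and 821. Members of the lists past 2-fold numbered 367 and between 250 and 405 under the alternatives. Of 241 named genes past 2-fold 42 came under 2-fold in at least 1 setting, and 0 named genes past 2-fold changed direction. A count test by edgeR's quasi-likelihood method, added after seeing the data, took the spread over mock and days 4, 5 and 7 as if they were 1 group, so that it holds the differences between those days. It called 0 genes higher and 0 lower after adjustment, with 694 and 414 at an unadjusted p under 0.05. A day rests on 1 pool, and variation between pools was not measured. Levels near 3 reads, worth 2.11 units on day 3 and 3.69 on day 1, limit what can be said of low genes.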

Other observations

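Genes that fell on day 3 often stood beside each other in the genome. In the RefSeq gene order, in which 9513 expressed genes could be placed, 287 of 771 genes that fell (37.2%) had a neighbour among the placed genes that also fell, against 12.9% of the other genes. For genes that rose the shares were 23.1% and 17.9%. Runs of genes that fell included the Ifit genes on chromosome 19 (6 genes, median ratio -5.65), the Phf11 genes with Setdb2 on chromosome 14 (5 genes, -3.68), Ly6 genes on chromosome 15 (7 genes, -3.88), Schlafen genes on chromosome 11 (5 genes, -3.32), the Tgtp and Irgm1 genes on chromosome 11 (8 genes, -2.97), Ccl2, Ccl7, Ccl12 and Ccl8 on chromosome 11 (4 genes, -2.74), Ifi204 and its relatives on chromosome 1 (6 genes, -2.08), Trim30 genes on chromosome 7 (5 genes, -2.23) and Gbp genes on chromosome 3 (5 genes, -2.03). The run of at least 4 genes that rose was that of the Reg genes, secreted lectins of injured pancreas, on chromosome 6 (6 genes, 2.03). Members of such families can share reads, so neighbours are not independent.

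Among the 15 lowest ratios outside the lists, Slfn4, a Schlafen gene of immature myeloid cells, had 3676 in mock and 48882, 371, 199, 3311 and 1390.2 on days 1, 3, 4, 5 and 7. Pou3f1, a transcription factor gene, had 21.0 in mock and 697, 4.93, 10.4, 51.0 and 17.7 on days 1, 3, 4, 5 and 7, with 7 reads on day 3. Reads counted for Lars2, the mitochondrial leucyl-tRNA synthetase gene, gave 13854 in mock and 15459, 420.5, 23516, 7232 and 3952 on days 1, 3, 4, 5 and 7, so that day 3 alone was low. The predicted gene Gm15564 fell on day 3 as well. Whether Lars2 shares reads with other sequences was not tested, so its values may not measure its own mRNA. Pydc3, a pyrin domain gene, had 25.4 on day 3 and 1754 on day 1. Among the highest, the cell cycle gene Cdca3 had 1473 on day 3 and 33.2 on day 1, and Fam64a had a ratio of 4.93 that rests on 13 reads on day 1. In absolute terms the largest loss was that of Ly6e, an interferon-induced membrane protein gene, with 11887 on day 3 and 165714 on day 1, and among the largest gains after Apoe were the lysozyme gene Lyz2, with 741722 on day 3 and 358217 on day 1, and Tmsb4x, an actin-binding peptide gene, with 275026 on day 3 and 165544 on day 1.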
